A study of Mus musculus with 29 samples.

Results

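Oxidative phosphorylation is carried out by 5 protein complexes of the mitochondrial inner membrane, and the nuclear genes for their subunits were followed here through stem and progenitor cells of the blood and 3 populations of their niche. The members are all genes of the deposited count tables whose symbol begins with Ndufa, Ndufb, Ndufc, Ndufs, Ndufv, Uqcr, Cox4 to Cox8 or Atp5, or is Sdha, Sdhb, Sdhc or Sdhd, without pseudogenes named as such. There were 97 members among the 38924 genes of the LSK table and 92 among the 18194 genes of the niche table. All 92 are also in the LSK table, and Atp5g2, Cox4i2, Cox6a2, Cox7b2 and Cox8c are members in the LSK table only. By role, 36 members belong to complex I, 4 to complex II, 8 to complex III, 18 to complex IV and 16 to complex V. Another 8 are assembly factors of complex I that share its symbol root (Ndufaf genes), and 7 are paralogs, associated proteins or gene copies. Of the 97, 93 are annotated as protein coding, 3 lie on the X chromosome, and the rest are spread over the autosomes.

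Mouse LSK cells (lineage-negative, Sca-1+, Kit+), a sort that holds the stem and progenitor cells of the blood, were taken once they had regenerated after transplantation in a wild-type (WT) niche (6 libraries) or in a niche haploinsufficient for the signalling gene Wnt5a (5 libraries, called Wnt5a). From niches of both genotypes, 3 sorted populations were profiled, named EC (endothelial), OBC (osteoblastic) and MSC (mesenchymal), each in 3 WT and 3 Wnt5a libraries. The genotype given for an LSK library is that of the niche, and strain 129Ly5.1 is given for every library. The labels give neither age nor transplant donor, nor whether niche libraries of different populations share animals, so p-values measure the spread between these libraries.

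Complexes I and II pass electrons from NADH and succinate to ubiquinone, complex III passes them on to cytochrome c, and complex IV hands them to oxygen. Complexes I, III and IV pump protons, and complex V, the ATP synthase, lets protons flow back to make ATP. Complexes I, III, IV and V also contain subunits encoded by the mitochondrial genome, which are not members, whereas complex II is encoded by nuclear genes alone. Quiescent blood stem cells are known for relying more on glycolysis than their dividing progeny do.

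Promoter stretches are shown for members whose values the results turn on: Ndufa7, Cox7a2, Ndufa6, Atp5j and Atp5b, which differed between WT niche populations, and Ndufa3 and Ndufa4, which were among the lowest p-values in LSK cells. Each is 100 bases that end before the annotated start of the gene, 5′ to 3′ on the strand of the gene, from RefSeq on GRCm38.p6; capitals mark a match to the NRF1 motif.
Ndufa7, chr17:33824472-33824571, plus strand: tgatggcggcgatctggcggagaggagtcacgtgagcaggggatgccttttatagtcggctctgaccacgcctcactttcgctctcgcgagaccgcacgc
Cox7a2, chr9:79759879-79759978, minus strand: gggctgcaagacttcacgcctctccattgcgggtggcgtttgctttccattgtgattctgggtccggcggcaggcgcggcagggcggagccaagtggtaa
Ndufa6, chr15:82354323-82354422, minus strand: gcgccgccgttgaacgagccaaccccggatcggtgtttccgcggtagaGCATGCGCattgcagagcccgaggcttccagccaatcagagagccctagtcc
Atp5j, chr16:84835626-84835725, minus strand: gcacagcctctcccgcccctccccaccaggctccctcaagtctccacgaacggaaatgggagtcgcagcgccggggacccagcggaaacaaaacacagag
Atp5b, chr10:128083173-128083272, plus strand: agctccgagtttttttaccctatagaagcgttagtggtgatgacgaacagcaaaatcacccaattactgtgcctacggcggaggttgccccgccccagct
Ndufa3, chr7:3617273-3617372, plus strand: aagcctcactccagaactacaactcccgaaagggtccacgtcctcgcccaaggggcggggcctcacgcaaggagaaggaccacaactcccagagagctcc
Ndufa4, chr6:11907498-11907597, minus strand: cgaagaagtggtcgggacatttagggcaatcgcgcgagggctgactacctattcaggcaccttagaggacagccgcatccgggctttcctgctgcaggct
Of these 7 stretches, only that of Ndufa6 held 1 of the 4 motifs searched. Promoter windows of 250 bases before to 50 after the start were at hand for 74 of the 97 members. NRF1, a regulator of many respiratory chain genes, was represented by GCATGCGC, searched on both strands like the other motifs. It was found in 12 of 74 member windows (16.2%) and in 3.05% of the windows of 27025 genes. The ETS core CCGGAAG, bound by GABPA, stood in 18 member windows (24.3%, against 9.93% of all genes). The YY1 motif AAGATGGC stood in 10 (13.5%, against 3.19%) and the cyclic AMP response element TGACGTCA in 4 (5.41%, against 2.03%). These matches describe letters in the windows and are not binding sites. The windows of Atp5j and Ndufa3 held a YY1 match, and that of Atp5j an ETS match, outside the stretches printed.

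Depth set what could be seen. LSK libraries held 1254553 to 5775459 reads, of which 19995 to 83211 fell on members in WT and 26318 to 50207 in Wnt5a, and 92 to 94 members were detected per library. Member counts in the niche were counts of unique molecular identifiers (UMIs), 1746 to 2009 per library in EC WT and 267 to 1738 in EC Wnt5a. They were 125 to 287 in OBC WT, 198 to 226 in OBC Wnt5a, 531 to 807 in MSC WT and 365 to 707 in MSC Wnt5a. The filter on low counts kept 91 of 97 members in LSK (all but Cox4i2, Cox7a1, Cox7b2, Cox8b, Cox8c and Ndufa4l2) and 41 of 92 in the niche, where no member of complex II and no Ndufaf gene was tested. Counts and medians below describe the tested members, not all of them. A list of 8 LSK markers was detected in full in both LSK groups. Endothelial markers took 1.23% ± 0.340 (SD, n = 3) of EC WT counts, 0.278% ± 0.0847 of OBC WT counts and 1.25% ± 0.0636 of MSC WT counts, so MSC WT was as rich in them as EC WT. Osteoblast markers took 1.33% ± 0.617 of OBC WT counts and 0.282% ± 0.0265 of MSC WT counts. In EC WT libraries 13, 14 and 15 they took 0.363, 0.135 and 0.281%, although Runx2 and Sp7 were at 0 in EC. Mesenchymal markers were higher in every OBC WT library (0.696% ± 0.109, with Pdgfra at 0) than in any MSC WT library (0.488% ± 0.0614), and took 0.126% ± 0.0321 in EC WT. So endothelial markers did not set MSC WT apart from EC WT, and mesenchymal markers were not highest in MSC WT. Fewer cells of a type and less RNA per cell cannot be told apart in such bulk libraries.

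In LSK cells the members together took 1.44% ± 0.0964 (SD, n = 6) of all reads in WT and 1.56% ± 0.470 (SD, n = 5) in Wnt5a. The WT libraries were close to each other, from 1.29% to 1.59%. The Wnt5a libraries 1 to 5 had 1.05, 1.36, 1.54, 2.32 and 1.51%, so both the lowest and the highest LSK library were of the Wnt5a group and the groups overlapped. In the niche, the 3 EC WT libraries had 2.10, 2.11 and 1.61%, and the EC Wnt5a libraries 1.44, 1.63 and 1.24% (means 1.94% ± 0.282 and 1.44% ± 0.195, n = 3 each). A single EC Wnt5a library, at 1.63%, lay just above the lowest WT library. OBC WT had the smallest member share of the WT niche groups by plain totals, 1.08, 0.964 and 1.18%, against 1.11, 1.29 and 1.59% in OBC Wnt5a. MSC shares were 1.6, 1.42 and 1.69% in WT and 1.83, 1.46 and 1.39% in Wnt5a, with means of 1.57% ± 0.136 and 1.56% ± 0.234. A share depends on all other RNA in a library: without mitochondrial, satellite, haemoglobin, immunoglobulin and ribosomal RNA genes in the total, the OBC WT share was 1.55% ± 0.132, the LSK WT share 1.5% ± 0.106 and the EC WT share 2.31% ± 0.561. By these totals the OBC WT libraries (1.42% to 1.69%) overlapped the MSC WT libraries (1.59% to 1.96%). By plain totals every OBC WT library lay below every MSC WT library, so the distance between niche groups depends on the total. LSK shares are of reads over 38924 genes and niche shares of UMIs over 18194 genes. LSK and niche groups are therefore not ranked against each other.

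**Figure D1:**
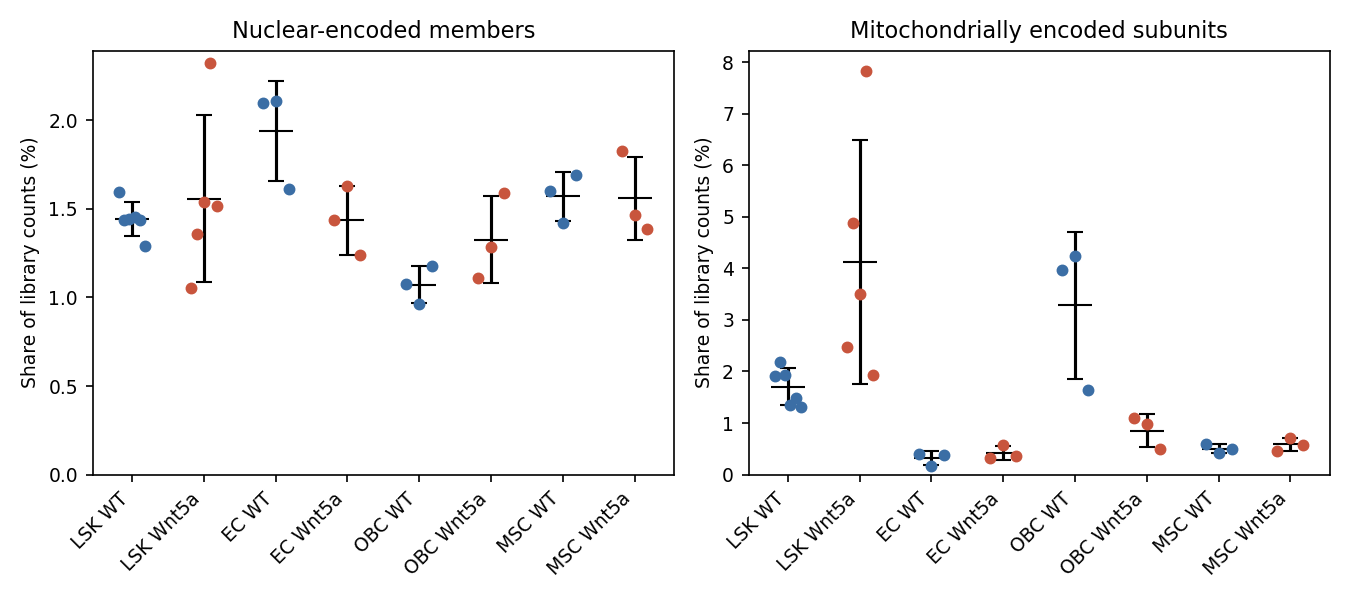
The left panel plots the share of all counts, in percent, taken by the members in each library of the 8 groups, and the right panel the share taken by subunits encoded in the mitochondrial genome (13 genes in the LSK table, 9 in the niche table). Points are libraries, bars are means and error bars are SD, with WT in blue and Wnt5a in red. The LSK Wnt5a libraries spread from 1.05% to 2.32% on the left, and OBC WT stands above OBC Wnt5a on the right.

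Per length, the highest transcript levels in WT LSK cells were those of small subunits. Read counts scaled to a common library total (CPM) and divided by the length of the principal transcript in kilobases (CPM per kb) put Ndufa4, a small subunit now assigned to complex IV, first at 710 ± 185 (SD, n = 6). Cox8a followed at 577 ± 197 and Atp5e, the epsilon subunit of the ATP synthase, at 532 ± 143. The spreads of these 3 genes overlapped. The large catalytic subunits were lower on this scale: Atp5b, the catalytic beta subunit, at 144 ± 20.3, Atp5a1, the alpha subunit, at 137 ± 23.2, and Sdha, the flavoprotein of complex II, at 95.9 ± 12.9. Core subunits of complex I were lower still, with Ndufs1 at 44.9 ± 9.43 and Ndufv1 at 38.4 ± 8.97, which did not differ beyond their spread. Among the 3 genes that encode the same c-ring subunit of the ATP synthase, Atp5g3 (305 ± 14.3) was above Atp5g2 (143 ± 51.5), and Atp5g1 (31.8 ± 6.76) was lowest. The place of Atp5g1 rests on its principal transcript of 4715 bases, against 731 for Atp5g2 and 723 for Atp5g3. Before division by length Atp5g1 was above Atp5g2 in every WT library, at 119 to 200 CPM against 70.0 to 168. Reads of Atp5g2 are uncertain, since 2 near-identical gene copies carried 7176 LSK reads in sum against 2893 of Atp5g2 itself.

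Complex IV has subunits with a common and a tissue-restricted form, and the common form carried most counts in each family. Summed over WT LSK libraries, Cox6a1 had 5206 reads and the heart and muscle form Cox6a2 had 116; Cox4i1 had 3575 and Cox4i2, the form linked to low oxygen, had 100. Cox7a2 had 4353 reads and the heart and muscle form Cox7a1 had 36, and Cox8a had 5873 against 0 of Cox8b. The testis-enriched Cox6b2 was less rare, with 1355 reads beside 5971 of Cox6b1 in WT and 937 beside 4253 in Wnt5a. In EC WT, Cox6b2 had 0, 12 and 0 UMIs in libraries 13, 14 and 15, all from library 14, beside 87 of Cox6b1 in sum, and Cox7a1 had 0 beside 163 of Cox7a2.

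No member passed the test between LSK cells from Wnt5a and WT niches at an adjusted p under 0.05 in edgeR, where 0.0229% of all 13098 genes tested did (3 genes). At an unadjusted p under 0.05 there were 25 of the 91 members, and 2414 of all 13098 genes tested. The fold change was above 0 for 61 members and below 0 for 30, with a median log2 fold change (Wnt5a over WT) of 0.23, against 0.02 over all genes tested. By complex, 12 of 13 tested members of complex IV lay above 0 (median 0.45), as did 12 of 16 of complex V (0.29), 24 of 36 of complex I (0.18) and 6 of 8 of complex III (0.16). In complex II, 3 of the 4 members lay below 0 (median -0.47), as did 7 of the 8 Ndufaf genes (median -0.49). These medians carry no test, and that of all members was 0.03 without Wnt5a library 4.

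**Figure D2:**
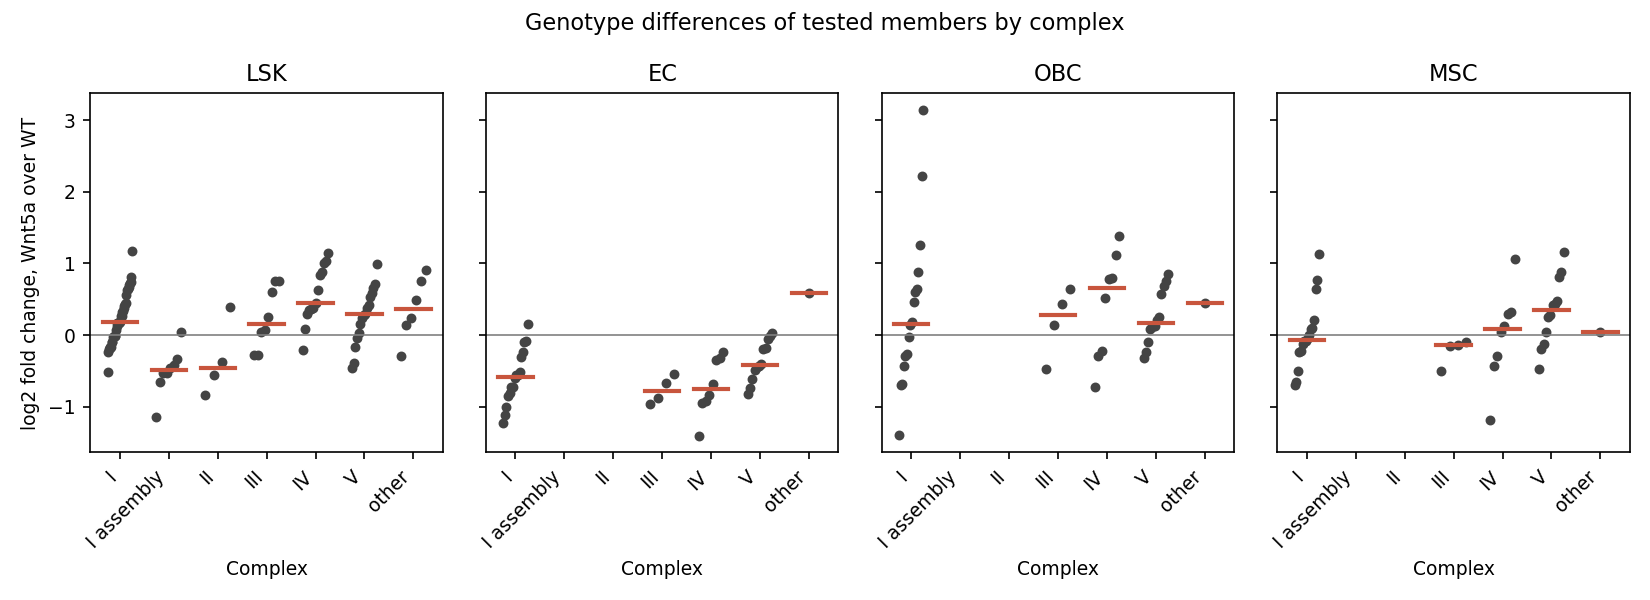
Each panel plots the log2 fold change (Wnt5a over WT) of the tested members by complex, for LSK, EC, OBC and MSC. Points are genes and red bars are medians; in EC all tested members of complexes III and IV lie below 0, and in LSK 12 of 13 of complex IV lie above it.

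The member with the smallest p in LSK cells was Ndufa3, an accessory subunit of complex I (chromosome 7, 3617373 to 3620327, plus strand; this and all positions below are GRCm38). Its level in CPM, scaled by the library factors of edgeR, ran from 106 over a median of 179 to 198 in WT, and was 178, 330, 285, 775 and 252 in Wnt5a libraries 1 to 5. Library 1 lay within the WT range and the other 4 above it. The log2 fold change was 1.18 (SE 0.31, adjusted p = 0.0917). Exons of Ndufa3 overlap those of Tfpt on the opposite strand, and whether counting used strand is not given in the sources used here, so the counts of this pair are uncertain.

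Ndufa12, another accessory subunit of complex I (chromosome 10, 94198720 to 94221443, plus strand), had 105 to 127 CPM in WT (median 116) and 139, 132, 251, 281 and 157 in Wnt5a. All Wnt5a libraries lay above all WT libraries, and the log2 fold change was 0.72 (SE 0.21, adjusted p = 0.109). Sdha was the other member without overlap, at 228 to 322 CPM in WT (median 278) and 372, 363, 420, 328 and 335 in Wnt5a (log2 fold change 0.39, SE 0.15, adjusted p = 0.192). So 2 of 91 members had every Wnt5a library above every WT library, where 1.26% of all genes did, and 0 members had every one below, where 1.55% did.

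Cox7a2, the common form of subunit 7a of complex IV (chromosome 9, 79755361 to 79759878, minus strand), had 166 to 366 CPM in WT (median 211) and 250, 542, 399, 1141 and 329 in Wnt5a. The log2 fold change was 1.15 (SE 0.34, adjusted p = 0.116), and the groups overlapped. Ndufa4 (chromosome 6, 11900292 to 11907497, minus strand) had 321 to 592 CPM in WT (median 389) and 412, 1014, 589, 1836 and 602 in Wnt5a (log2 fold change 1.04, SE 0.32, adjusted p = 0.120). For both genes library 4 was far above the other Wnt5a libraries and library 1 was within the WT range. Ndufb2, an accessory subunit of complex I, had 64.7 to 103 CPM in WT (median 90.1) and 93.9, 124, 126, 296 and 119 in Wnt5a (log2 fold change 0.81, SE 0.27, adjusted p = 0.137). Its exons overlap Gm42420 on the same strand and Braf on the opposite strand, so its counts too are uncertain.

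Complex II was split. Sdhc, a membrane anchor of the complex (chromosome 1, 171127165 to 171150603, minus strand), had 137 to 281 CPM in WT (median 187) and 86.4, 102, 76.3, 81.4 and 209 in Wnt5a. Libraries 1 to 4 of Wnt5a lay below every WT library and library 5 among them (log2 fold change -0.84, SE 0.28, adjusted p = 0.137). The iron-sulfur subunit Sdhb (log2 fold change -0.56, adjusted p = 0.278) and the other anchor Sdhd (-0.37, adjusted p = 0.498) had fold changes of the same sign, and Sdha had the opposite one. Among the Ndufaf genes, Ndufaf5, a complex I assembly factor, had the smallest p, with 29 ± 13.1 CPM in WT and 12.9 ± 5.82 in Wnt5a (log2 fold change -1.15, SE 0.40, adjusted p = 0.155).

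**Figure D3:**
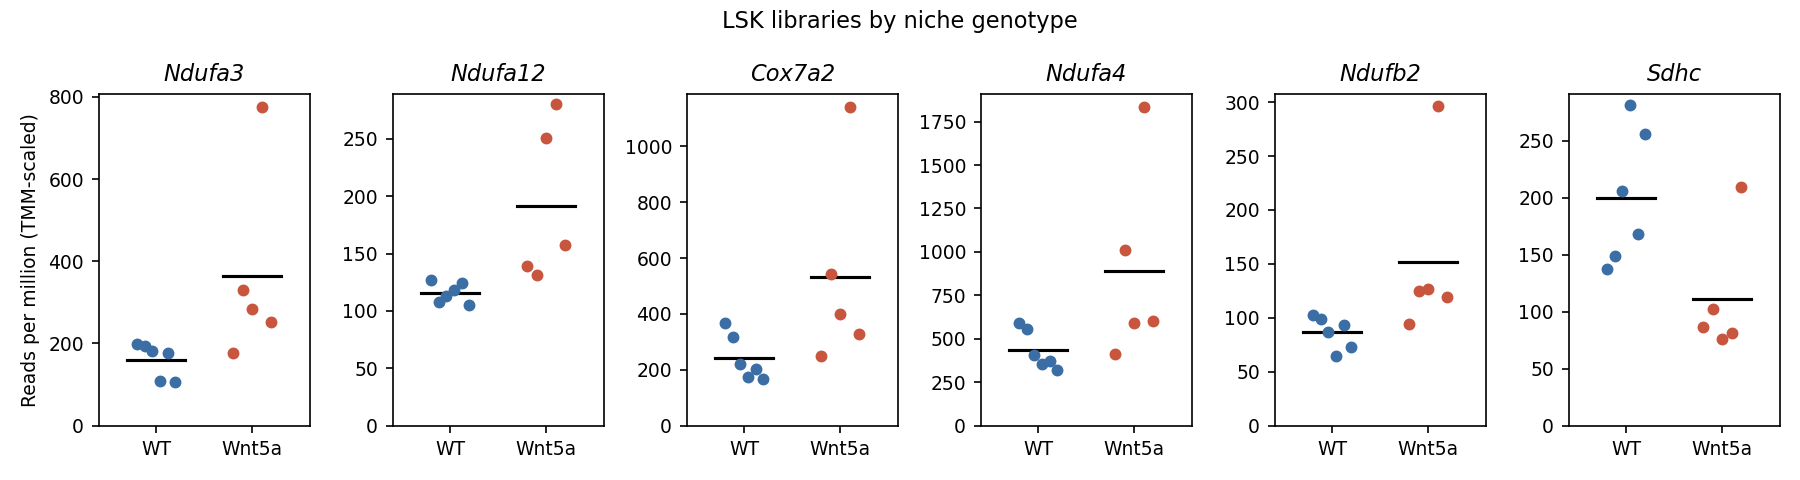
Read levels (CPM, library-scaled) of Ndufa3, Ndufa12, Cox7a2, Ndufa4, Ndufb2 and Sdhc are plotted for the 6 WT and 5 Wnt5a LSK libraries. Points are libraries and black lines are means. Ndufa12 is the only 1 of the 6 without overlap between the groups.

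No catalytic core gene passed the test in LSK cells. For the core of complex I the LSK log2 fold changes ran from -0.52 (Ndufs3, adjusted p = 0.247) to 0.17 (Ndufv1, adjusted p = 0.765). Reads of Ndufs3 are uncertain, since its near-identical gene copy Gm12251 carried 1681 LSK reads against 1762 of Ndufs3 itself. In complex III they were -0.28 for the Rieske protein gene Uqcrfs1 (adjusted p = 0.527), 0.07 for Uqcrc1 (0.908) and -0.27 for Uqcrc2 (0.466). In complex V they were 0.37 for Atp5a1 (adjusted p = 0.281) and 0.15 for Atp5b (0.654).

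The LSK counts depended on which libraries entered and on the test. DESeq2 called 4 members higher in Wnt5a, Ndufa3, Cox7a2, Ndufa4 and Ndufa12 (adjusted p from 0.0145 to 0.0428), with 5.01% of all genes called. Without Wnt5a library 5 edgeR called the same 4 members higher (adjusted p from 0.0267 to 0.0400) and Sdhc (log2 fold change -1.20, adjusted p = 0.00915) and Sdhd (-0.85, adjusted p = 0.0135) lower, with 8.32% of all genes called. Library 5 had 8.28% of its reads on immunoglobulin genes, against 0.264% to 0.972% in the other Wnt5a libraries; its part in the result was not tested. Wnt5a libraries 4 and 5 carry 3-digit numbers in their labels and all other LSK libraries carry 4-digit numbers, whose meaning is not given. Among the 4-digit libraries alone (6 WT, 3 Wnt5a), 5 members were called, all lower in Wnt5a: Sdhc, Sdhd, the complex I assembly factors Ndufaf3 and Ndufaf4, and Atp5c1, the gamma subunit of the ATP synthase (log2 fold changes from -1.44 to -0.93). In that fit 6.34% of all genes were called and the member median was -0.08. With no filter on low counts Sdhc was called lower (log2 fold change -0.89, adjusted p = 0.0420), with 1.13% of all genes called.

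Members with short transcripts differed more among the LSK libraries than long ones did. The 44 members with a principal transcript of at most 875 bases had a median log2 fold change of 0.38, with 38 above 0, and the 43 longer members one of -0.03, with 19 above 0. Other short coding genes (459) had a median of 0.16, and other long ones (10403) of 0.03. In Wnt5a library 4 the short members stood at a median of 1.0 on the log2 scale above the median of all libraries, and other short coding genes at 0.72. Wnt5a library 1 showed the opposite, with medians of -0.62 for short members and -0.48 for other short coding genes. The long members were at 0.16 in library 4 and -0.29 in library 1. The genes whose CPM followed Cox7a2 most closely over the 11 LSK libraries were Ndufa3 (Spearman's rho 0.98), Ndufb2 (0.96), Ndufa4 (0.96), Atp5mpl (0.95) and Cox7b (0.93). All 11 points share library depth and composition. The 37 of 90 members with a rho over 0.5 had a median transcript length of 590 bases, and the 31 below 0 had 1363. Library 4 also had 8.96% of its reads on the mitochondrial genome, the most of any LSK library, and library 1 had 6.73% on satellite repeats. Satellite shares were also 1.80, 3.04 and 1.28% in Wnt5a libraries 2, 3 and 4, above every WT library (0.0836% to 0.417%), and 0.341% in library 5. Whether either share goes with transcript length was not tested.

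**Figure D4:**
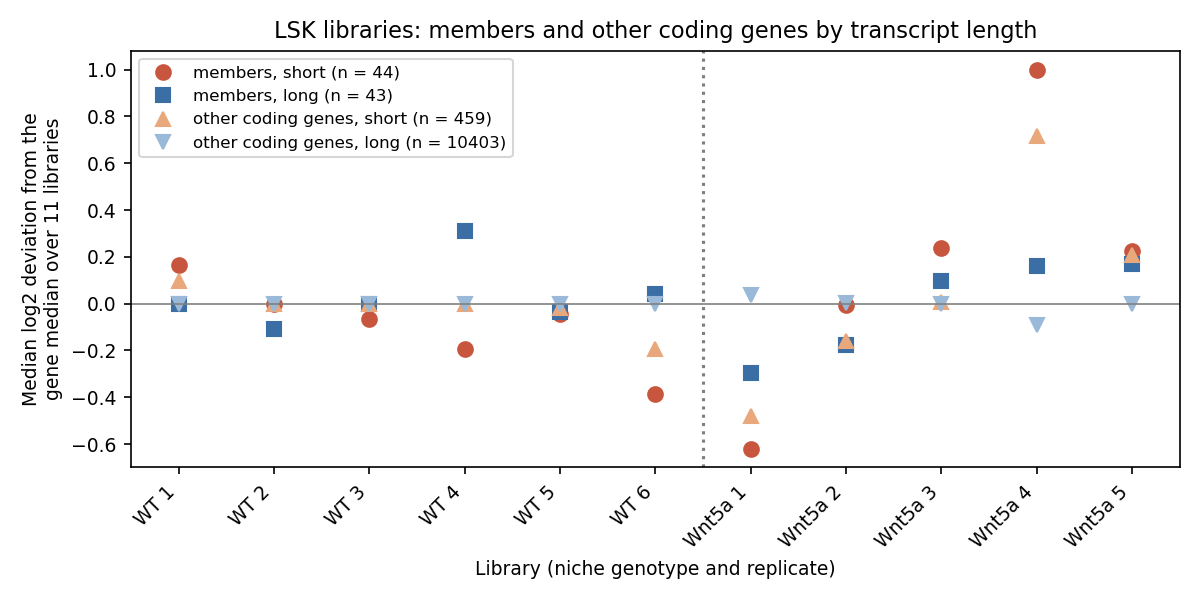
The median log2 deviation of a library from the median of all LSK libraries is plotted for short members, long members and other short and long coding genes, in the 6 WT and 5 Wnt5a LSK libraries. Short members are lowest in Wnt5a library 1 (-0.62) and highest in Wnt5a library 4 (1.0), and other short genes follow the same pattern.

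In endothelial cells the tested members were mostly lower in Wnt5a, without any passing the test. Of 41 members, 38 had a log2 fold change below 0 and 3 above, with a median of -0.56 against -0.06 over all 1099 genes tested. In edgeR 0 passed, where 0.364% of all genes did. An unadjusted p under 0.05 was reached by 7 members and by 89 of all 1099 genes. All 4 tested members of complex III (median -0.77) and all 8 of complex IV (-0.76) lay below 0. So did 15 of 16 of complex I (-0.58) and 11 of 12 of complex V (-0.42). Other coding genes with a principal transcript of at most 682 bases (49) also had a negative median, -0.37, with 36 below 0. Longer other coding genes (885) had a median of -0.02. The 21 short members had a median of -0.52 and the 20 longer ones -0.61. Of the 41 members, 11 had every Wnt5a library below every WT library, where 8.46% of all genes did, and 1 member, the supercomplex factor Cox7a2l, had every one above, where 5.64% did. The 11 were Atp5b, Atp5j, Cox6c, Cox7a2, Cox8a, Ndufa13, Ndufa4, Ndufa6, Ndufs7, Uqcr11 and Uqcrq. The EC Wnt5a libraries also had more neutrophil marker UMIs (0.140% to 0.272%, against 0.0324% to 0.0483% in WT), with all 8 markers detected in both groups. Their ribosomal RNA shares were 4.32, 5.79 and 11.3%, against 2.94, 1.85 and 4.21% in WT, and their part in the result was not tested.

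Cox7a2 had the smallest p of the members in EC. Its WT libraries 13, 14 and 15 had 481, 906 and 315 CPM of UMIs (library-scaled), and its Wnt5a libraries 16, 17 and 18 had 194, 210 and 215. The WT libraries varied almost 3-fold and the Wnt5a libraries hardly at all, and the log2 fold change was -1.41 (SE 0.44, adjusted p = 0.191). Without WT library 15 it was -1.61 and passed the test (adjusted p = 0.0373), with 1.98% of all genes called. Without WT library 14, where haemoglobin took 24.3% of the UMIs, the member median was -0.30, with 31 members below 0 and 10 above.

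Of the other members with a small p in EC, Ndufa4 had 293, 640 and 427 CPM in WT and 242, 242 and 215 in Wnt5a (log2 fold change -0.95, SE 0.40, adjusted p = 0.498). Uqcr11, a small subunit of complex III, had 418, 580 and 382 in WT and 145, 169 and 364 in Wnt5a (-0.96, SE 0.41, adjusted p = 0.499). The 3 Wnt5a libraries lay below WT for both genes, by a narrow margin for Wnt5a library 18 in Uqcr11. Ndufa13, an accessory complex I subunit also known as GRIM-19, had 355, 314 and 300 against 145, 210 and 99.3 (-1.0, SE 0.45, adjusted p = 0.499); its exons overlap Tssk6 on the opposite strand. Ndufv3, another accessory subunit, had 376, 302 and 127 against 48.5, 186 and 33.1 (-1.23, SE 0.55, adjusted p = 0.499), with overlap. Cox6c, a small nuclear subunit of complex IV, had 659, 688 and 375 against 291, 347 and 298 (-0.84, SE 0.40, adjusted p = 0.568); its exons overlap Vps13b on the opposite strand.

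In osteoblastic cells 27 of 41 members lay above 0 and 14 below, with a median log2 fold change of 0.20 against 0.00 over all genes. No member passed the test, where 1.0% of all genes did. An unadjusted p under 0.05 was reached by 96 of all 1099 genes and by 2 members. Both of these members rested on few molecules. Ndufa7, an accessory subunit of complex I (chromosome 17, 33824572 to 33838317, plus strand), had 0, 1 and 0 UMIs in WT libraries 7, 8 and 9 and 0, 3 and 5 in Wnt5a libraries 10, 11 and 12. The ratio per total UMIs was 10.8, with a 95% interval from counting error alone of 1.45 to 480, and the adjusted p was 0.334. Ndufc1, also of complex I, had 3 UMIs in WT and 12 in Wnt5a (ratio 5.41, interval 1.46 to 29.9, adjusted p = 0.334). The 41 members included 7 with every Wnt5a library above every WT library (Atp5g3, Cox5a, Cox6c, Ndufa4, Ndufa6, Ndufb9 and Ndufc1), where 7.19% of all genes did, and 0 with every one below, where 6.01% did. Cox6c had 141, 296 and 182 CPM in WT and 371, 436 and 600 in Wnt5a (log2 fold change 1.12, SE 0.59, adjusted p = 0.595). Cox7a2 had 141, 42.3 and 182 against 61.9, 311 and 525 (1.38, SE 0.76, adjusted p = 0.619), with overlap, and Ndufa6, an accessory subunit of complex I, had 0, 127 and 182 against 186, 187 and 300 (1.26, adjusted p = 0.696). Ndufb10, of the same complex, had 424, 42.3 and 273 against 61.9, 62.3 and 150 (-1.40, SE 0.88, adjusted p = 0.679). OBC Wnt5a libraries had fewer osteoblast marker UMIs, 0.444% ± 0.157 against 1.33% ± 0.617 in WT, with Runx2 at 0 in Wnt5a. They had more neutrophil marker UMIs, 0.671, 0.910 and 0.590% against 0.249, 0.430 and 0.480% in WT, without overlap and with all 8 markers detected in both groups. The part of these marker shares in the values was not tested.

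In mesenchymal cells the members were split, 22 above and 19 below 0, with a median log2 fold change of 0.04 against -0.03 over all genes. With the scaling of DESeq2 (RLE) in edgeR these became 15 above and 26 below, with a median of -0.18 against -0.24 over all genes, so the majority sign of the members turns with the scaling. No member passed, where 0.455% of all genes did. An unadjusted p under 0.05 was reached by 3 members and by 203 of all 1099 genes. Cox7a2 was again the member with the smallest p, at 418, 496 and 386 CPM in WT libraries 1, 2 and 3 and 233, 132 and 219 in Wnt5a libraries 4, 5 and 6 (log2 fold change -1.18, SE 0.50, adjusted p = 0.204). It was the only member with every Wnt5a library below every WT library, where 12.7% of all genes did. Another 5 members had every Wnt5a library above, where 13% of all genes did: Atp5mpl, Atp5o, Cox4i1, Cox5a and Ndufb2. Atp5o, which links the catalytic head of the ATP synthase to its stalk, had 247, 372 and 386 against 885, 549 and 482 (0.88, SE 0.42, adjusted p = 0.264). Reads of Atp5o are uncertain, since it has a near-identical gene copy. Cox5a, a complex IV subunit, had 95, 174 and 142 against 512, 198 and 219 (1.06, SE 0.52, adjusted p = 0.264), and Wnt5a library 4 alone was far above WT. Atp5mpl, a small membrane subunit of the ATP synthase, had 152, 124 and 101 against 419, 285 and 197 (1.17, SE 0.63, adjusted p = 0.323), Ndufb10 had 76.0, 49.6 and 183 against 140, 219 and 307 (1.13, SE 0.61, adjusted p = 0.322), and Atp5d, the delta subunit, 209, 124 and 142 against 140, 307 and 351 (0.81, SE 0.50, adjusted p = 0.407). MSC Wnt5a libraries had 0.732% ± 0.0957 endothelial marker UMIs against 1.25% ± 0.0636 in WT. Their neutrophil marker shares were 0.255, 0.369 and 0.339% against 0.125, 0.107 and 0.145%, without overlap and with all 8 markers detected in both groups. Their ribosomal RNA shares were 5.28, 14.3 and 11.4% against 7.09, 4.75 and 4.78%. The part of these shares in the values was not tested.

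**Figure D5:**
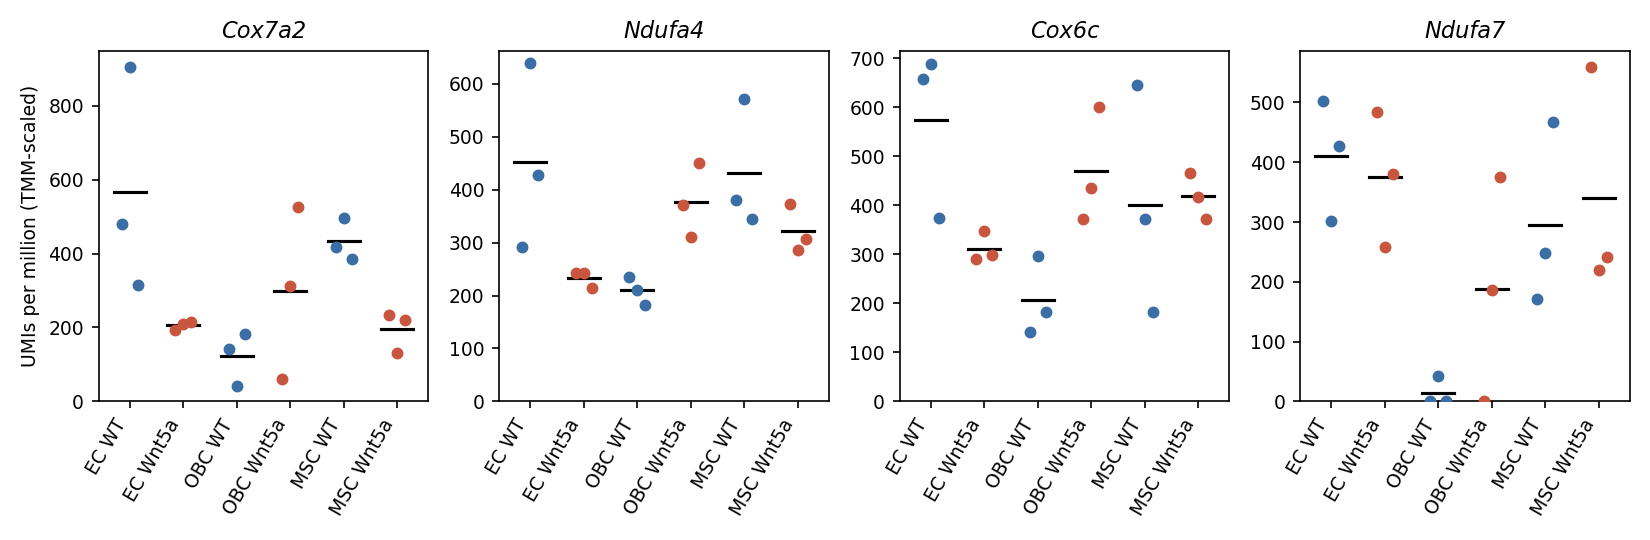
UMI levels (CPM, library-scaled) of Cox7a2, Ndufa4, Cox6c and Ndufa7 are plotted for the 6 niche groups. Points are libraries and black lines are means. Cox7a2 is lower in Wnt5a than in every WT library in EC and in MSC, and Ndufa7 is at or near 0 in OBC WT.

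Averaged over the 3 populations, 17 members lay above and 24 below 0 (median -0.08, against -0.04 over all genes). In edgeR 0 passed, where 2.82% of all genes did. An unadjusted p under 0.05 was reached by 1 member and by 180 of all 1099 genes. The test of whether the genotype difference itself varied among EC, OBC and MSC called 0 members (0.455% of all genes). It gave 4 members, and 92 of all 1099 genes, an unadjusted p under 0.05, and Cox7a2 an adjusted p of 0.422. Between EC and OBC alone, 37 of 41 members had a genotype difference that was lower in EC (median difference -0.77 on the log2 scale). Of all 1099 genes, 551 did (median -0.02), as did 30 of 49 other short coding genes (median -0.31). No member passed the test, where 0.364% of all genes did. For Cox7a2 that difference was -2.80 (SE 0.88, adjusted p = 0.213), for Cox6c -1.95 (adjusted p = 0.347), for Ndufa4 -1.75 (0.459) and for Ndufa6 -1.98 (0.527). Cox6c, Ndufa4 and Ndufa6 had every Wnt5a library below WT in EC and every one above WT in OBC. This is a description, since the difference did not pass for any of them. How many of all genes had this pattern was not counted, so it is not read as a trait of the members.

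Between the WT niche populations, members did pass the test. Of 41 tested, 7 were higher in EC than in OBC, where 20.7% of all genes were higher and 36.3% differed, so the share of members was not above that of all genes that passed the filter. Without a filter on low counts 11 of 92 members were called, all higher in EC, where 3.37% of 15930 genes differed, so the reading against all genes depends on which low genes are tested. The member median was 0.53 on the log2 scale against 0.26 over all genes, and 32 members lay above 0. The 7 came from complex I (Ndufa7, Ndufa6), III (Uqcrq), IV (Cox7a2, Cox6c) and V (Atp5j, Atp5b). Ndufa7 had 502, 302 and 427 CPM in EC WT libraries and 0, 42.3 and 0 in OBC WT, a ratio of summed UMIs (130 against 1) of 29.2 with a counting interval of 5.14 to 1160 (adjusted p = 0.000294). Atp5j, coupling factor 6 of the ATP synthase, had 429, 217 and 240 against 94.2, 0 and 0, or 91 against 2 UMIs (ratio 10.2, interval 2.75 to 85.5, adjusted p = 0.00622); its exons overlap Gabpa on the opposite strand. The groups did not overlap for either gene. At these OBC WT counts both genes passed the filter on low counts only through libraries of other groups. The test could thus hardly have found them higher in OBC WT. Cox7a2 was higher in EC by 2.33 on the log2 scale (SE 0.61, adjusted p = 0.00245), from the EC values above against 141, 42.3 and 182 in OBC. Uqcrq, a small subunit of complex III, had 596, 833 and 562 against 235, 84.5 and 456 (1.55, SE 0.49, adjusted p = 0.0105). Atp5b had 617, 567 and 367 against 235, 127 and 182 (1.5, SE 0.54, adjusted p = 0.0252), Cox6c differed by 1.41 (SE 0.51, adjusted p = 0.0249) and Ndufa6 by 1.81 (SE 0.66, adjusted p = 0.0258). Without OBC WT library 8 only Cox6c and Ndufa7 passed, and with other single libraries left out up to 9 members did. The shares of all genes called in these refits are not given here, so these counts are not read against all genes. OBC WT libraries also had 12% to 17.1% of their UMIs on the mitochondrial genome, against 0.95% to 2.26% in EC WT, and the part of this in the differences was not tested.

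Ndufa7 and Cox7a2 were also the members lower in OBC WT than in MSC WT, 2 of 41, where 16.2% of all genes were lower and 28.3% differed. Ndufa7 had 171, 248 and 467 CPM in MSC WT (42 UMIs against 1 in OBC, ratio 20.9, interval 3.56 to 847, adjusted p = 0.00314). Cox7a2 differed by -1.96 on the log2 scale (SE 0.64, adjusted p = 0.0182). This comparison shares the OBC WT libraries with the one before, and Ndufa7 again entered the test through groups other than OBC WT. Between EC WT and MSC WT 0 members passed in edgeR, where 2.0% of all genes did. Of the 41, 37 lay above 0, with a median of 0.31 against 0.06 over all genes. Other coding genes of at most 682 bases also had a positive median, 0.39, with 39 of 49 above 0. Short members had a median of 0.30, long members 0.42 and other long coding genes 0.02.

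The remaining subunits of complexes I, III, IV and V are encoded in the mitochondrial genome, and their values stand here beside those of the nuclear members. In LSK cells these 13 genes took 1.70% ± 0.359 of reads in WT and 4.12% ± 2.36 in Wnt5a (1.94% to 7.84%). All 13 had fold changes above 0 (median 1.63), and 0 passed in edgeR, with adjusted p = 0.0564 for mt-Atp6 (log2 fold change 1.93) and mt-Nd6 (1.85). DESeq2 called 12 of them higher, where it called 5.01% of all genes. Without Wnt5a library 5 edgeR also called 12 higher, where it called 8.32% of all genes. In OBC the nuclear members had a median of 0.20. There 6 of 7 tested mitochondrial subunits fell in Wnt5a, where 1.0% of all genes passed. Among them were mt-Nd5 (log2 fold change -3.23, SE 0.56, adjusted p = 0.000549) and mt-Nd3 (-3.35, adjusted p = 0.00101), both subunits of complex I. The summed share of the mitochondrial subunits was 3.97, 4.24 and 1.64% in WT and 1.10, 0.973 and 0.488% in Wnt5a, without overlap. Leaving out single libraries gave 3 to 7 that fell, and limma voom gave 3. Between EC and OBC the genotype difference itself passed for mt-Nd3 (4.50), mt-Nd5 (3.80) and mt-Nd4 (2.68), and between OBC and MSC for mt-Nd5 (-4.29) and mt-Nd1 (-2.67), with 0.364% of all genes passing in either comparison. In WT cells all 7 were lower in EC than in OBC (median -4.01), where 36.3% of all genes differed. All 7 were also higher in OBC than in MSC (median 3.31), where 28.3% of all genes differed. The nuclear members had medians of the opposite sign, 0.53 and -0.26. So did all genes tested, with 0.26 and -0.18, so the sign is not particular to the members.

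Related nuclear genes outside the rule behaved as follows. The complex III subunit gene Cyc1 and the cytochrome c gene Cycs had LSK log2 fold changes of 0.34 (adjusted p = 0.388) and 0.33 (0.368). Of 37 tested assembly factors, 0 passed in LSK cells, 17 lay above 0 and 20 below (median -0.06); Pet100, for complex IV, had 1.33 (adjusted p = 0.0902) and the RNA-binding factor Lrpprc -0.85 (0.140). Of 14 tested regulators of mitochondrial gene expression, 12 lay above 0 (median 0.25) and 0 passed, with Myc at 1.13 (SE 0.24, adjusted p = 0.0564) and Yy1 at 0.68 (0.144). Tricarboxylic acid cycle and pyruvate dehydrogenase genes (16 tested) had a median of -0.01 and carriers and channels (9 tested) one of -0.02, with 0 past the test in both. The smallest p-values there were those of Suclg2 (0.61, adjusted p = 0.126), Pdhb (-0.69, 0.146), Mpc2 (0.54, 0.214) and Ucp2 (-0.58, 0.419). In the niche too few of these were tested for a count by list. The phosphate carrier gene Slc25a3 was higher in EC WT than in OBC WT (3.52, SE 0.98, adjusted p = 0.00391) and lower in OBC WT than in MSC WT (-3.69, adjusted p = 0.00386), and the complex IV assembly factor Coa3 was higher in EC WT than in OBC WT (2.64, adjusted p = 0.0273). Cox17, Mdh2 and Slc25a4, the others tested in the niche, did not pass in any single contrast.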

How the data were processed

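Raw read counts from Smart-seq2 (LSK) and UMI counts from barcoded, pooled cDNA (niche) were taken as deposited, by Ensembl gene, per the labels' protocols. STAR and featureCounts on mm10 (GRCm38) are named in the submitters' processing notes, while UMI collapsing, annotation release and strand use were not given in the sources used here. The 28 spike-in rows of the niche table were kept out of totals. The quasi-likelihood test of edgeR 4.0.16 (R 4.3.3; TMM, robust) was run per table after filterByExpr (counts of at least 10, at least 15 in total). One fit took the 18 niche libraries, by 6 groups, and another the 11 LSK libraries. Adjusted p-values are Benjamini-Hochberg values from edgeR over all genes tested, passing under 0.05, unless DESeq2 is named. The SE is the log2 fold change over the square root of F. Levels of genes (CPM) are scaled by TMM factors, and shares use plain totals.

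Alternatives were RLE scaling, limma voom (3.58.1), DESeq2 (1.42.0), other filters, only the groups compared, LSK libraries with 4-digit numbers only, and leaving out each library. The members and lists were chosen with earlier results of these data known. Named genes are members past the test, the 6 with the smallest p in each genotype comparison, isoform groups, catalytic core genes, and related genes past the test or else the 2 with the smallest p. Not every gene that this rule names is given in the text, and 1 of them is not reported here. Gene copies were searched with blastn 2.17.0 (95% identity over 50% of the transcript). Of the 97 members 14 had one, among them Atp5l, Atp5h, Atp5g2, Atp5c1, Atp5o and Ndufs3, and 29 members overlap exons on the opposite strand. Transcript lengths are of the principal transcript in the GENCODE annotation of GRCm38. Smart-seq2 reads are not independent molecules, and intervals of ratios are exact 95% intervals for counting error only. The test was tried on simulated data before use.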

Additional observations from a re-analysis of the deposited data

Results flagged for a closer look

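Within LSK groups, single libraries stood apart for 3 members, by Dixon's test on the gap to the nearest library; 28 groups were tested, and chance marks about 1 group in 20. Wnt5a library 4 was far above the other 4 Wnt5a libraries for Ndufa3 (775.0 CPM) and for Ndufb2 (296.4 CPM), both accessory subunits of complex I. Wnt5a library 5 was far above the other Wnt5a libraries for Sdhc, the complex II membrane anchor, at 209.5 CPM.

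For 4 subunits encoded in the mitochondrial genome, all of complex I, the genotype difference itself differed between niche populations by edgeR's test of the interaction. On the log2 scale it was higher in EC than in OBC by 4.50 for mt-Nd3 (adjusted p = 0.00116), by 3.80 for mt-Nd5 (0.0103) and by 2.68 for mt-Nd4 (0.0452). Between OBC and MSC it was -4.29 for mt-Nd5 (adjusted p = 0.00387) and -2.67 for mt-Nd1 (0.0312). These contrasts share the OBC libraries. No nuclear member differed in this way.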

How the results depend on the processing

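The count of LSK members past the test, 0 in edgeR with TMM scaling, was 1 without a filter on low counts, 4 with DESeq2 and 5 with the 4-digit libraries only; leaving out 1 library gave 0 to 6. In EC, leaving out 1 library gave 0 to 1, and in OBC, MSC, the niche mean, the genotype by population test and EC against MSC in WT it gave 0 to 0. For EC against OBC in WT the count was 11 of 92 without a filter (3.37% of all genes), and 2 to 9 with 1 library left out. For OBC against MSC in WT it was 1 with only the groups compared, and 1 to 3 with 1 library left out. For these WT comparisons the left-out counts are given without the share of all genes. Member shares without mitochondrial, satellite, haemoglobin, immunoglobulin and ribosomal RNA genes in the total were 2.31% in EC WT, 1.68% in EC Wnt5a, 1.55% in OBC WT, 1.81% in OBC Wnt5a, 1.80% in MSC WT and 1.95% in MSC Wnt5a. With 1 library left out, shares ran from 1.41% to 1.47% (LSK WT), 1.37% to 1.68% (LSK Wnt5a), 1.86% to 2.10% (EC WT), 1.34% to 1.53% (EC Wnt5a), 1.02% to 1.13% (OBC WT), 1.20% to 1.44% (OBC Wnt5a), 1.51% to 1.65% (MSC WT) and 1.43% to 1.64% (MSC Wnt5a). The cause of these moves was not tested. The OBC members lay 43 above and 43 below 0 without a filter, against 27 and 14 with it. Single genes were followed for the 6 members with the smallest p in each genotype comparison and for members past the test between WT niche populations. Under settings other than a left-out library, 204 of their values kept their side of the threshold, 6 crossed it to pass and 4 lost it. None of these values changed sign. With 1 library left out, 530 kept their side, 6 came to pass and 14 were lost. These genes were picked by p in the same data, and other named genes were not followed in this way. DESeq2 and limma voom were not run for genotype by population. No paired analysis was run, because the labels name no pairing. The niche replicate numbers are all different, and the LSK numbers were given in accession order. By accession the niche libraries repeat in the order MSC, OBC and EC within each genotype. Libraries of different populations may therefore come from the same niche, and a fit that pairs them was not tested. Depth limits the OBC values most, where a member often had under 10 UMIs in a group.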
